A study of Mus musculus with 24 samples.

Results

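Retinoic acid is a vitamin A derivative that acts as a signal in embryos, and 9 genes that make, bind, degrade or respond to it were followed across 6 genotypes of mouse pharyngeal arch. The members were named by symbol and found by their Entrez gene numbers among the 26611 gene identifiers of the count table: Aldh1a1, Aldh1a2, Aldh1a3, Crabp1, Crabp2, Cyp26a1, Cyp26b1, Cyp26c1 and Rarb. All 9 were counted, and 8 passed the filter on low counts that left 14506 genes for testing. Aldh1a1, with 2 to 27 counts per library, did not pass. In the embryo, retinaldehyde dehydrogenases of the Aldh1a family make retinoic acid, cellular binding proteins carry it, and Cyp26 enzymes oxidise and inactivate it. Retinoic acid binds nuclear receptors that sit on repeated response elements, and some genes of the pathway, Rarb and Cyp26a1 among them, are themselves switched on by it. The signal is known for patterning the hindbrain and the posterior pharyngeal arches, and the face needs both its supply and its removal.

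Each library was made from the polyadenylated RNA of the first and second pharyngeal arches, which build the jaws and middle ear, of female C57BL/6 embryos at E10.5. The study, which bears on how loss of Kat6a (also called Moz, a histone acetyltransferase) and of Dlx5 (a homeodomain factor of the lower jaw) affects craniofacial development, has 24 libraries in 6 groups of 4 biological replicates. By label the groups are Kat6a -/- with Dlx5 +/+ (Kat6a homozygous), Dlx5 -/- with Kat6a +/+ (Dlx5 homozygous), Kat6a +/- with Dlx5 +/- (double heterozygous), Kat6a +/- with Dlx5 +/+ (Kat6a heterozygous), Dlx5 +/- with Kat6a +/+ (Dlx5 heterozygous), and +/+ at both genes (wild type). The sources used here give neither the structure of the mutant alleles nor whether embryos were pooled. Embryos came from 2 mouse facilities, labelled as batches: all Kat6a homozygous and wild type libraries were in batch 2, all Dlx5 homozygous libraries in batch 1, and the heterozygous groups spanned both.

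Depth ran from 10.4 to 28.2 M counts per library, with wild type replicate 1 the deepest and the next at 16.7 M. The gene-level counts of the targeted genes did not separate the groups labelled homozygous for them from wild type: Kat6a averaged 228 ± 15 CPM in libraries labelled Kat6a homozygous and 202 ± 41 CPM in wild type, and Dlx5 averaged 62.6 ± 5.1 CPM in libraries labelled Dlx5 homozygous and 69.4 ± 6.8 CPM in wild type (SD, n = 4 each). Dlx5 was at 34.5 to 42.4 CPM in libraries labelled Kat6a homozygous, below every library of the other 5 groups, which were at 54.6 CPM or more. The deleted parts of the genes are not given, so these counts do not check the labels, and the homozygous groups are named here by label. Neuron and glia content differed within groups, by the mean centred log2 level of the 14 of 15 listed marker genes that passed the filter. This score was 1.72 in Kat6a homozygous replicate 2, 2.48 in Kat6a heterozygous replicate 2, 2.09 in Dlx5 heterozygous replicate 2 and 2.33 in wild type replicate 2, each more than 1 above the next library of its group. It was 0.70 to 1.82 in the double heterozygous group and -1.55 to -1.09 in the Dlx5 homozygous group.

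Response elements for retinoic acid receptors are direct repeats of a short core. Such a repeat, the core GTTCA, any 6 bases and GTTCA again, read on either strand, was searched in RefSeq windows of 250 bases before to 50 after the start of each gene (GRCm38.p6). It was found in 25 of 32851 windows, 0.0761%, and in 2 of the 8 windows of the 7 members that have one, Rarb and Cyp26a1. With cores GTTCA or GGTCA, 81 windows (0.247%) held the repeat, the same 2 members among them. Shorter spacings of 3 or 2 bases between these cores matched no member window, against 0.399% and 0.402% of all windows. The stretches below are shown because they are the repeats themselves, in the genes known to answer retinoic acid; each is 30 bases, with the repeated cores in capitals. The Rarb stretch lies at chr14:16575506-16575535 on the minus strand, with the repeat 52 to 37 bases before the window's start site, and overlaps an exon of 2 of the 7 GENCODE transcripts of the gene. The Cyp26a1 stretch lies at chr19:37697769-37697798 on the plus strand, with the repeat 32 to 17 bases before the window's start site, which lies inside the gene's annotated span, and overlaps an exon of 1 of 2 transcripts.
Rarb: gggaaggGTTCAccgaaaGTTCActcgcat
Cyp26a1: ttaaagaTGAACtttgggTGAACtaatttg
The letters describe the windows and were not tested as binding sites.

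The members lie on 6 chromosomes of GRCm38.p6, given here with their Entrez numbers. Aldh1a1 (11668) spans 20492583 to 20643463 of chromosome 19, Aldh1a2 (19378) spans 71215789 to 71296243 of chromosome 9 and Aldh1a3 (56847) spans 66390892 to 66427477 of chromosome 7. Crabp1 (12903) spans 54764748 to 54773110 of chromosome 9 and Crabp2 (12904) spans 87948693 to 87953372 of chromosome 3. Cyp26a1 (13082) and Cyp26c1 (546726) are neighbours on chromosome 19, at 37697738 to 37701536 and 37685112 to 37693320, while Cyp26b1 (232174) spans 84571414 to 84593908 of chromosome 6. Rarb (218772) spans 16430839 to 17082331 of chromosome 14.

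Levels across genes were compared per length, as RPKM from the deposited gene lengths. In wild type arches the binding proteins stood far above the rest, with Crabp1 at 380 ± 55 RPKM and Crabp2 at 324 ± 23 RPKM (SD, n = 4). Cyp26c1 (8.86 ± 2.64 RPKM), Aldh1a3 (8.20 ± 3.02), Rarb (8.18 ± 0.80) and Cyp26a1 (7.67 ± 1.34) followed, and these neighbours did not differ beyond their spread. Cyp26b1 was at 2.08 ± 0.67 RPKM, Aldh1a2 at 1.05 ± 0.43 and Aldh1a1 at 0.305 ± 0.114. Of the 3 enzymes that make retinoic acid, Aldh1a3 therefore had the highest level per length in these arches. Among the nuclear receptors, Rarb was below Rarg (59.1 ± 6.7 RPKM) and Rara (15.3 ± 1.8 RPKM), both named after their values were seen.

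**Figure D1:**
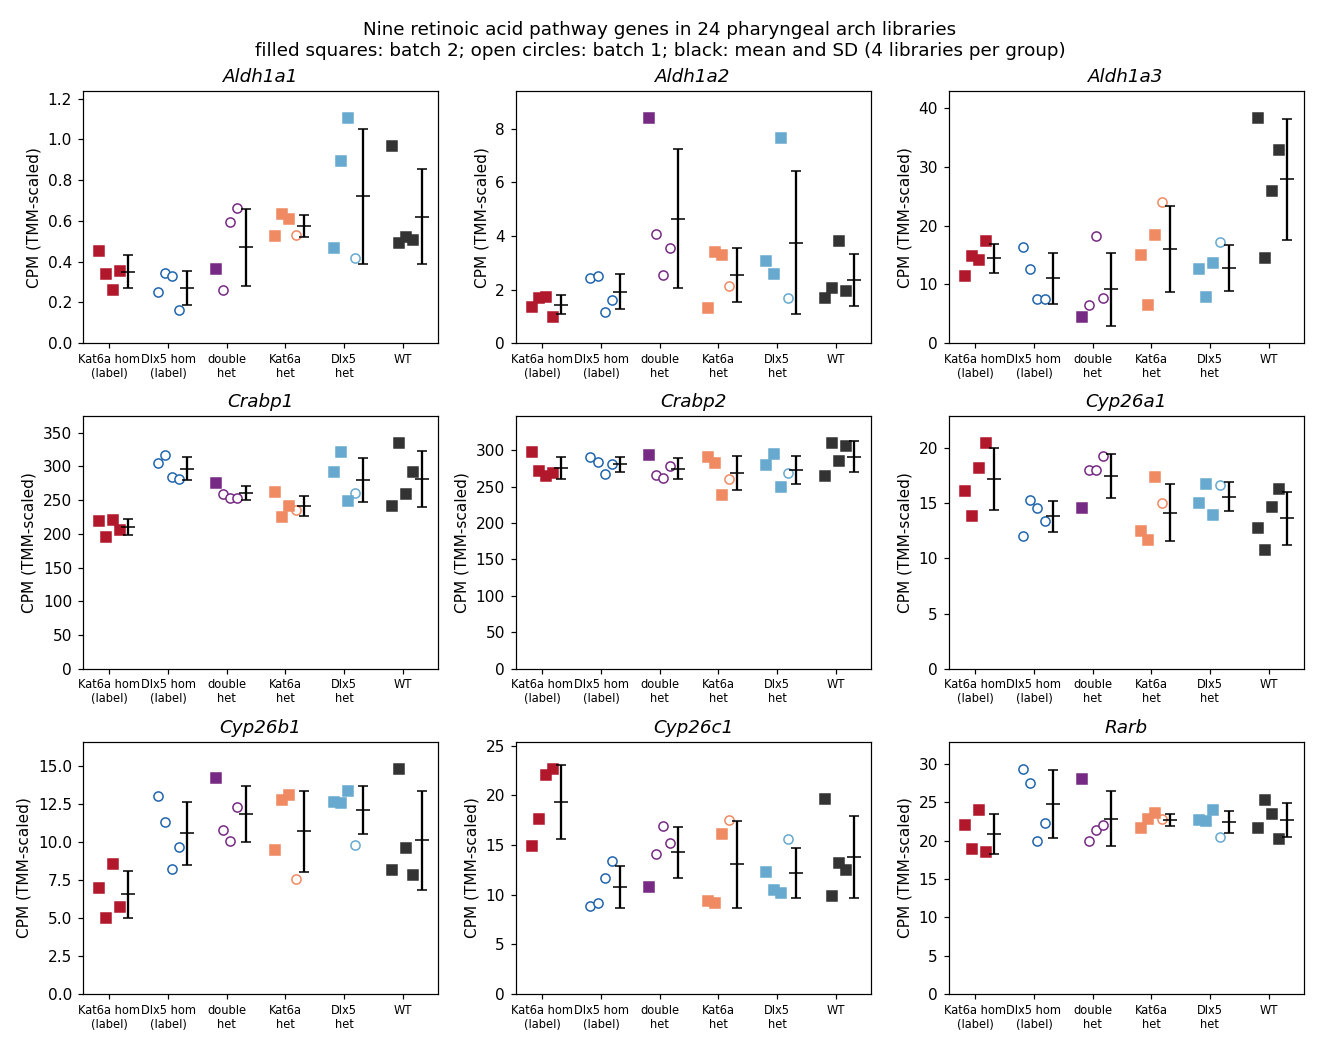
Level of each of the 9 genes in CPM (counts scaled to the TMM-adjusted library total, linear axes from 0) in every library, by genotype, with mutant groups left and wild type right. Filled squares are batch 2, open circles batch 1, and black marks give mean and SD of 4 libraries. Crabp1 of the 4 Kat6a homozygous libraries sits at 196 to 220 CPM, below all 4 wild type libraries at 241 to 334 CPM, and Aldh1a3 of wild type reaches 38.3 CPM.

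The genotype test over all groups was led by Crabp1. Over all 6 genotypes, 3 of the 8 tested members varied by genotype (edgeR quasi-likelihood test with a batch term, Benjamini-Hochberg over 14506 genes): Crabp1 (adjusted p = 0.0091), Aldh1a2 (0.029) and Cyp26b1 (0.0333). The same test called 202 genes in all, 1.39% of those tested. In a tissue sample, fewer cells of a type and less RNA per cell cannot be told apart. Cyp26c1 (0.066) and Aldh1a3 (0.099) missed the threshold, and Crabp2 (0.72) and Rarb (0.485) gave the highest values. Crabp1 alone was called without double heterozygous replicate 1 or Kat6a homozygous replicates 1, 2 or 4, and 5 members were called without wild type replicate 2. Rarb varied 1.59-fold between its lowest and highest library and Crabp2 1.29-fold, against 8.75-fold for Aldh1a3 and 8.66-fold for Aldh1a2. Fold changes below are log2 values of the model with a batch term, so for groups that span the batches they can differ from the ratio of the mean CPM.

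Among the enzymes of synthesis, calls were confined to Aldh1a3, the retinaldehyde dehydrogenase known from the eye, nose and facial surface epithelium, in the 11 comparisons between groups tested by edgeR. It was lower in all 5 mutant groups than in wild type by the fitted values, and the call was made for the double heterozygous group alone. Aldh1a3 had 4.38, 6.43, 18.2 and 7.62 CPM in double heterozygous libraries, against 38.3, 14.5, 25.9 and 32.8 CPM in wild type libraries. Double heterozygous replicate 3 overlapped the lowest wild type library, replicate 2, while the other 3 lay below all 4. After removal of the fitted batch difference all 4 were below wild type, which held for 6.88% of all genes tested. The difference removed was 0.86 for Aldh1a3 (batch 1 minus batch 2, log2, SE 0.36, edgeR adjusted p = 0.69), itself not called. Its log2 fold change was -2.32 (SE 0.48, edgeR adjusted p = 0.039), and it was the 1 member of 8 called, against 0.448% of all genes.

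Markers of other cells were set beside this result, starting with the neuron and glia list. All 14 tested of the 15 markers had a positive log2 fold change in the double heterozygous group, none was called by edgeR, and their summed level was 170 to 353 CPM in double heterozygous libraries and 71.2 to 525 CPM in wild type. In wild type replicate 2, the neuron-rich wild type library, Aldh1a3 was at 14.5 CPM, against 25.9 to 38.3 CPM in the other wild type libraries. In Kat6a heterozygous replicate 2 it was at 6.57 CPM, against 14.96 to 24.1 CPM in the rest of that group, and in Dlx5 heterozygous replicate 2 at 7.84 CPM, against 12.6 to 17.2 CPM. In Kat6a homozygous replicate 2, also neuron-rich, it was at 14.8 CPM, within the 11.4 to 17.4 CPM of the rest. Among the double heterozygous libraries the one with the highest score, replicate 3, had the most Aldh1a3, and the Dlx5 homozygous libraries, all low in the score, were low in Aldh1a3 as well. Of 12 forebrain and eye markers 8 were tested and Six3 was called lower, with sums of 43.0 to 50.6 CPM in double heterozygous and 43.4 to 52.4 CPM in wild type libraries and Rax at 0 in the double heterozygous group. By the model with a batch term, 6 of the 8 had a negative log2 fold change (median -0.69). The summed CPM of this and the other lists are not batch-adjusted. The 10 surface epithelium markers summed to 384 to 535 CPM in double heterozygous and 381 to 505 CPM in wild type libraries, with none of 9 tested called. Of these 9, 6 had a negative log2 fold change (median -0.23). The 10 nasal and otic placode markers summed to 297 to 343 CPM in double heterozygous and 295 to 357 CPM in wild type libraries. Of the 6 tested, 3 had a negative log2 fold change (median -0.15). None was called by edgeR, and DESeq2 and limma voom called Dlx3. Of 11 pharyngeal endoderm markers, 9 tested, Pax9 was called higher while 6 had a negative log2 fold change (median -0.49), with sums of 79.3 to 95.0 CPM in double heterozygous and 73.2 to 87.9 CPM in wild type libraries. Of 8 macrophage markers Mpo was called higher, with sums of 44.1 to 52.2 CPM in double heterozygous and 36.6 to 47.4 CPM in wild type libraries. Of these 8 markers, 6 had a positive and 2 a negative log2 fold change. The part of these lists in the result was not tested. With the marker score as a covariate the log2 fold change was -1.92 (edgeR adjusted p = 0.118), and without the 4 neuron-rich libraries, an alternative chosen after seeing the data, it was -2.37 (adjusted p = 0.0142). Without the batch term it was -1.61 (adjusted p = 0.166), and within batch 2, with 1 double heterozygous library, -2.69 (adjusted p = 0.372). The call was also lost when any 1 of 9 libraries was left out: wild type replicate 4, Kat6a heterozygous replicate 4, Dlx5 heterozygous replicates 2 and 4, double heterozygous replicates 1, 2 and 4, or Kat6a homozygous replicates 2 and 3 (adjusted p up to 0.419).

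In the remaining groups Aldh1a3 did not pass the test. The Dlx5 homozygous libraries had 16.4, 12.5, 7.59 and 7.499 CPM, with a log2 fold change of -2.22 against wild type (SE 0.51, edgeR adjusted p = 0.183; DESeq2 0.0128 and limma voom 0.0241). These libraries share no batch with wild type, and without the batch term the value was -1.36 (adjusted p = 0.275), so genotype and facility are separated in the fit through the heterozygous groups alone. After removal of the fitted batch difference Aldh1a3 and Cyp26c1 of all 4 libraries lay below wild type, as for 6.05% of all genes. Before it, both genes overlapped wild type. The difference removed for Cyp26c1 was 0.54 (batch 1 minus batch 2, log2, SE 0.18, edgeR adjusted p = 0.53), not called. Kat6a homozygous libraries had 11.4, 14.8, 14.2 and 17.4 CPM (-0.97, SE 0.36, adjusted p = 0.216). Kat6a heterozygous libraries had 14.96, 6.57, 18.5 and 24.1 CPM (-1.09, SE 0.37, adjusted p = 0.286), and Dlx5 heterozygous libraries had 12.6, 7.84, 13.6 and 17.2 CPM (-1.39, SE 0.38, adjusted p = 0.225), below all wild type libraries once the batch difference was removed, as for 2.32% of all genes. Wild type had both the highest mean and the highest SD of the 6 groups, 27.9 ± 10.3 CPM.

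**Figure D2:**
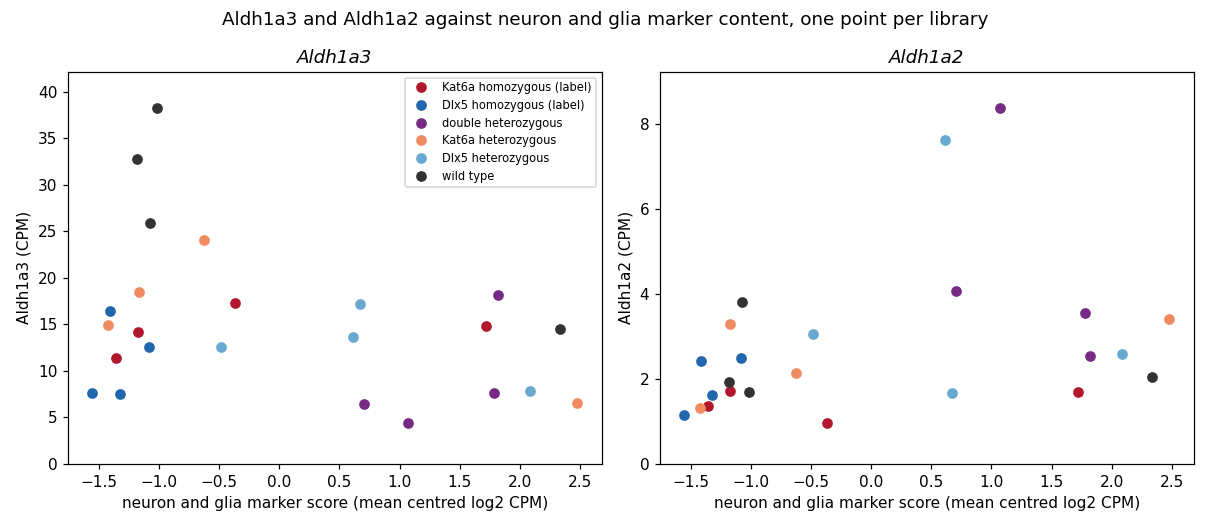
Aldh1a3 (left) and Aldh1a2 (right) in CPM against the neuron and glia marker score (mean centred log2 CPM of the markers), one point per library, coloured by genotype. The 3 highest Aldh1a3 values, 25.9 to 38.3 CPM, belong to wild type libraries with a score near -1, and the 2 highest Aldh1a2 values, 8.40 and 7.64 CPM, to a double heterozygous and a Dlx5 heterozygous library.

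Aldh1a2, the main retinoic acid synthesising enzyme of trunk mesoderm, varied by genotype but passed in none of the pairwise comparisons. It had 8.40, 4.08, 2.54 and 3.56 CPM in double heterozygous libraries and 1.69, 2.05, 3.80 and 1.93 CPM in wild type libraries, and the groups overlapped. Its log2 fold change was 1.69 (SE 0.41, edgeR adjusted p = 0.0619), and the libraries stopped overlapping after removal of the batch difference, as for 6.5% of all genes. DESeq2 gave an adjusted p of 0.0215 and limma voom 0.0242, while without the batch term the value was 0.9996 (adjusted p = 0.363). It also passed in the edgeR fits without wild type replicate 3, Kat6a heterozygous replicate 1, Dlx5 heterozygous replicate 3 or double heterozygous replicate 3 (adjusted p down to 0.0232). The fitted batch difference of Aldh1a2 was -1.06 (batch 1 minus batch 2, SE 0.33, adjusted p = 0.423). Kat6a homozygous libraries held the lowest mean, 1.44 ± 0.35 CPM, from 1.36, 1.70, 1.72 and 0.969 CPM (-0.68 against wild type, SE 0.39, adjusted p = 0.456). Aldh1a1, a further enzyme of the family, was near the detection limit: 3 to 6 counts per library in the Kat6a homozygous group, 2 to 4 in the Dlx5 homozygous group and 6 to 27 in wild type. The 27 counts were in wild type replicate 1, the deepest library. Scaled for depth, these groups were at 0.258 to 0.453, 0.161 to 0.344 and 0.491 to 0.968 CPM. Fitted with no filter, Aldh1a1 had a log2 fold change of -0.90 in Kat6a homozygous and of -0.98 in Dlx5 homozygous libraries (edgeR adjusted p = 0.415 and 0.716).

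Binding proteins split. Crabp1, a cytoplasmic retinoic acid binding protein known from cranial neural crest and hindbrain, fell in Kat6a homozygous libraries, and Crabp2, the binding protein that passes retinoic acid on to receptors, did not pass in any comparison. Crabp1 had 219, 196, 220 and 206 CPM in Kat6a homozygous libraries, against 241, 334, 258 and 292 CPM in wild type libraries. All 4 were below all wild type libraries, as for 3.54% of all genes after removal of the batch difference. Its log2 fold change was -0.42 (SE 0.08, edgeR adjusted p = 0.00526). It was the 1 member of 8 called in this comparison, where 1.53% of all genes were called and 1.06% were called lower; the median log2 fold change of the 8 members was -0.27 and that of all genes 0.01.

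The order of the genotype means of Crabp1 was Dlx5 homozygous (297 ± 17 CPM), wild type (282 ± 41), Dlx5 heterozygous (280 ± 33), double heterozygous (260 ± 11), Kat6a heterozygous (241 ± 15) and Kat6a homozygous (210 ± 12). Neighbours in that order overlapped from library to library, except the last pair, where Kat6a homozygous libraries (196 to 220 CPM) lay below the Kat6a heterozygous ones (226 to 261 CPM), as for 3.77% of all genes after removal of the batch difference. The Kat6a homozygous and heterozygous groups differed by -0.22 (SE 0.08, edgeR adjusted p = 0.311), which did not pass. The Kat6a heterozygous group differed from wild type by -0.20 (SE 0.08, adjusted p = 0.374), also short of the threshold. Against Dlx5 homozygous libraries, with 305, 317, 285 and 281 CPM, the Kat6a homozygous group was lower by a log2 fold change of -0.60 (SE 0.11, edgeR adjusted p = 0.0132), without overlap, as for 7.2% of all genes after removal of the batch difference. The Dlx5 homozygous libraries also lay above all double heterozygous ones, at 253 to 276 CPM, as for 4.05% of all genes, and that difference was not called (0.22, SE 0.08, edgeR adjusted p = 0.661).

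The call of Crabp1 against wild type held with each of the 24 libraries left out in turn (-0.50 to -0.34, adjusted p up to 0.0239). It was lost within batch 2 (-0.43, adjusted p = 0.0511), with the 2 groups alone (-0.43, adjusted p = 0.0638) and without the 4 neuron-rich libraries (-0.30, adjusted p = 0.0553). Markers of other tissue, and of arch mesenchyme itself, held calls in the same comparison. The summed level of 12 forebrain and eye markers was 19.9 to 30.7 CPM in Kat6a homozygous and 43.4 to 52.4 CPM in wild type libraries, with 2 of the 8 tested called lower and Nkx2-1 at 0 in all Kat6a homozygous libraries. For 8 hindbrain and midbrain markers the sums were 19.9 to 25.4 CPM and 26.8 to 35.7 CPM, with 2 of 5 tested called lower. Wnt1 was at 0 in every library of each mutant group, not of the Kat6a homozygous group alone. The 12 arch mesenchyme markers summed to 1737 to 2100 CPM in Kat6a homozygous and 1831 to 2214 CPM in wild type, which overlapped, with 3 called lower. Other lists also held calls: of 8 macrophage markers, all tested, Mrc1 and Mpo were called higher, with sums of 46.0 to 65.6 CPM in Kat6a homozygous and 36.6 to 47.4 CPM in wild type libraries. Of these 8 markers, 4 had a positive and 4 a negative log2 fold change. Of 10 nasal and otic placode markers, 6 tested, Dlx3 was called lower and Ebf2 higher, with sums of 291 to 331 CPM in Kat6a homozygous and 295 to 357 CPM in wild type libraries. Their part in the result of Crabp1 was not tested.

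The 250 bases before the start of Crabp1, at chr9:54764498-54764747 on the plus strand of GRCm38.p6 (RefSeq), overlap no exon of its GENCODE transcript. They are shown because Crabp1 is the member called against wild type in the Kat6a homozygous group, with matches to the GC box GGGCGG on either strand in capitals. The stretch holds 5 matches. Of all such windows 32.7% hold at least 1, and the share that hold 5 or more was not counted.
Crabp1: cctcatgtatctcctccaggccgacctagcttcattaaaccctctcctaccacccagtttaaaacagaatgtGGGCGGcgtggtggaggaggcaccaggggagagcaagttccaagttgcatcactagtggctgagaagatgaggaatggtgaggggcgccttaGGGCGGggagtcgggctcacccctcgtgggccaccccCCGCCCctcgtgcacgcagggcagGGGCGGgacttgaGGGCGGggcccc
No binding was measured here.

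Crabp2 was the steadiest member. Its group means lay between 268 ± 23 CPM in Kat6a heterozygous and 291 ± 21 CPM in wild type libraries, with 276 ± 15 CPM in Kat6a homozygous and 281 ± 10 CPM in Dlx5 homozygous libraries (SD, n = 4). All its log2 fold changes against wild type were between -0.10 and 0.02, and the lowest of their edgeR adjusted p values was 0.579.

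**Figure D3:**
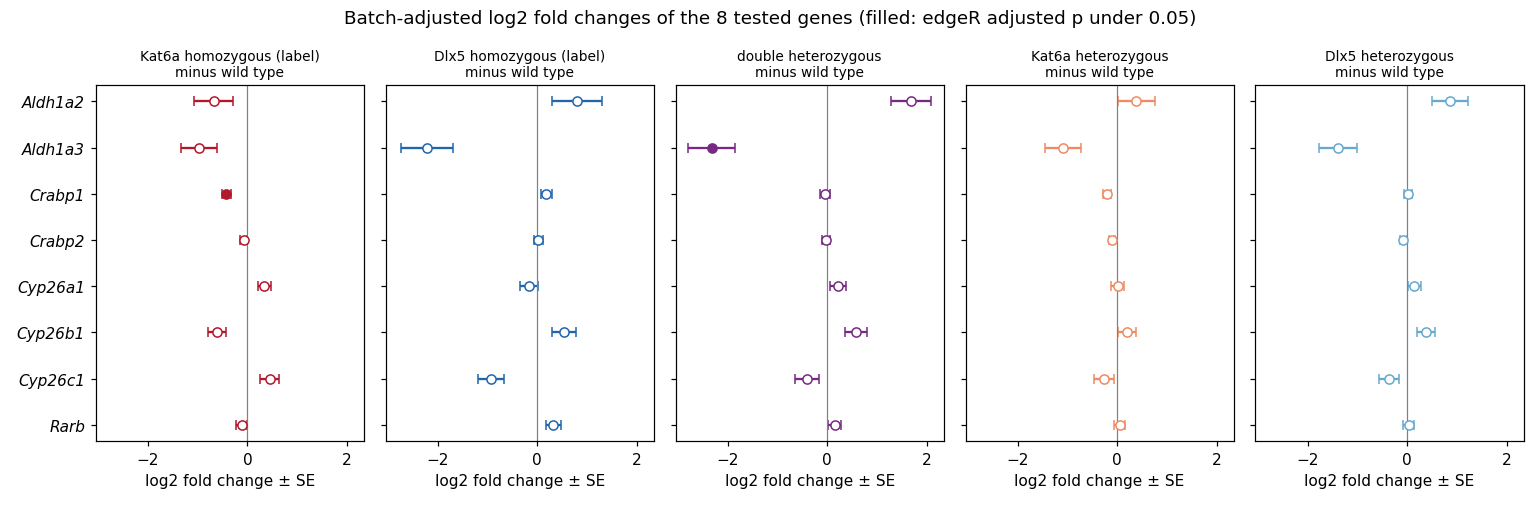
Log2 fold change (batch-adjusted, with SE) of the 8 tested genes in each mutant group against wild type, 1 panel per group; filled points have an edgeR adjusted p under 0.05. Filled are Crabp1 in the Kat6a homozygous group (-0.42) and Aldh1a3 in the double heterozygous group (-2.32); Aldh1a3 is negative in all 5 panels.

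Degradation is shared by 3 cytochrome P450 enzymes, and these did not move as 1. Cyp26b1 was lowest and Cyp26c1 highest in the Kat6a homozygous group. Cyp26b1, the form known for limb, hindbrain and craniofacial mesenchyme, had 6.94, 5.001, 8.53 and 5.73 CPM in Kat6a homozygous libraries, against 9.45, 12.7, 13.1 and 7.55 CPM in Kat6a heterozygous and 8.18, 14.8, 9.60 and 7.82 CPM in wild type libraries. Single libraries overlapped in both settings. It fell against Kat6a heterozygous libraries by a log2 fold change of -0.80 (SE 0.19, edgeR adjusted p = 0.048), the 1 member of 8 called there, against 0.641% of all genes. Against wild type the value was -0.61 (SE 0.19, adjusted p = 0.111), which did not pass. The call against Kat6a heterozygous libraries sat at the threshold: it held in 8 of the 24 fits with a library left out, namely those that lacked replicate 1, 2 or 4 of wild type, Kat6a heterozygous replicate 1, double heterozygous replicate 4, Dlx5 homozygous replicates 1 or 3, or Kat6a homozygous replicate 3. Over the other 16 the adjusted p reached 0.21. With the replicate numbers as a block, the value was -0.78 (adjusted p = 0.0756). Against wild type, Cyp26b1 passed in the fit without wild type replicate 1 (adjusted p = 0.0426).

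Cyp26c1, which lies 4417 bases from Cyp26a1 on chromosome 19 and is known from anterior mesenchyme and hindbrain, had 14.9, 17.6, 22.0 and 22.6 CPM in Kat6a homozygous libraries. The Dlx5 homozygous libraries had 8.87, 9.19, 11.6 and 13.4 CPM and wild type had 19.6, 9.90, 13.2 and 12.4 CPM. Kat6a homozygous libraries were above all Dlx5 homozygous ones, as for 7.42% of all genes after removal of the batch difference, and overlapped wild type. Directly compared, the Kat6a homozygous group exceeded the Dlx5 homozygous group by a log2 fold change of 1.38 in Cyp26c1 (SE 0.27, edgeR adjusted p = 0.0242), and it was lower by -1.14 in Cyp26b1 (SE 0.25, adjusted p = 0.0401). With Crabp1 these were 3 of 8 members called, against 0.407% of all genes. The groups lie in different batches, and without the batch term the values were 0.84 for Cyp26c1 (adjusted p = 0.09) and -0.69 for Cyp26b1 (adjusted p = 0.134). Leaving out Dlx5 heterozygous replicate 4 or double heterozygous replicate 1 left none of the 3 called. Leaving out Kat6a heterozygous replicate 4, Dlx5 homozygous replicate 2 or Kat6a homozygous replicate 4 left Crabp1 alone, and 7 further libraries decided the call of Cyp26b1: Kat6a heterozygous 2, Dlx5 heterozygous 2, double heterozygous 2 and 3, Dlx5 homozygous 1 and 4, and Kat6a homozygous 2 (adjusted p up to 0.175). With the replicate block Crabp1 alone was called. Against wild type, Cyp26c1 was at 0.45 in the Kat6a homozygous group (SE 0.19, adjusted p = 0.279) and at -0.93 in the Dlx5 homozygous group (SE 0.27, adjusted p = 0.258), neither past the threshold. Without wild type replicate 1, which had 19.6 CPM, the Kat6a homozygous value was 0.69 and passed (adjusted p = 0.0356). Against Kat6a heterozygous libraries, with 9.36, 9.18, 16.1 and 17.5 CPM, Cyp26c1 was at 0.72 (SE 0.20, edgeR adjusted p = 0.116; DESeq2 0.0324), and it passed by edgeR without wild type replicate 1 or Kat6a heterozygous replicate 3 (adjusted p down to 0.0337).

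Cyp26a1, the form that retinoic acid itself induces, had 16.2, 13.9, 18.3 and 20.4 CPM in Kat6a homozygous libraries and 12.8, 10.8, 14.7 and 16.3 CPM in wild type libraries, which overlapped. The log2 fold change was 0.34 (SE 0.13, edgeR adjusted p = 0.227). In double heterozygous libraries it was at 17.5 ± 2.0 CPM and in Dlx5 homozygous ones at 13.8 ± 1.4 CPM, against 13.7 ± 2.4 CPM in wild type (SD, n = 4), and no comparison called it.

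**Figure D4:**
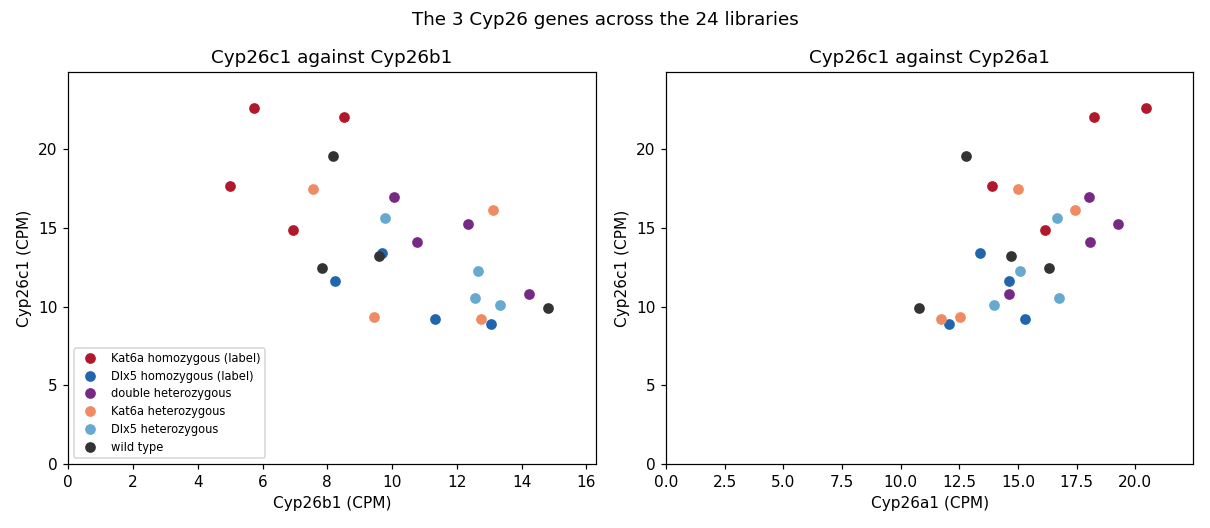
Cyp26c1 against Cyp26b1 (left) and against Cyp26a1 (right), all in CPM, one point per library, coloured by genotype. Kat6a homozygous libraries lie at the low Cyp26b1 and high Cyp26c1 end (5.001 to 8.53 and 14.9 to 22.6 CPM). Wild type replicate 1 (8.18 and 19.6 CPM) and Kat6a heterozygous replicate 4 (7.55 and 17.5 CPM) lie within the same ranges.

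Across the 24 libraries Cyp26c1 ran against Cyp26b1 and with its neighbour Cyp26a1. The libraries share genotype, batch and scaling, and 28 pairs of members were compared, 11 with a Benjamini-Hochberg adjusted permutation p under 0.05. The permutations shuffled all 24 libraries across genotypes and batches, so their p values also take in differences between groups. The share of such pairs among all genes was not computed. For Cyp26b1 and Cyp26c1 Pearson's r was -0.64 (100000 permutations, two-sided p = 0.00054, adjusted 0.00378) and Spearman's rho -0.61 (permutation p = 0.00172, adjusted 0.012). The r was -0.49 in the 9 libraries of batch 1, -0.69 in the 15 of batch 2 and -0.55 without the 2 libraries farthest from the median of Cyp26b1. It was -0.30 over deviations from the genotype means. For Cyp26a1 and Cyp26c1 r was 0.61 (permutation p = 0.00179, adjusted 0.00835) and rho 0.56 (permutation p = 0.00475, adjusted 0.0222), with 0.63 in batch 1, 0.62 in batch 2, 0.50 without the 2 farthest libraries and 0.50 over deviations from the genotype means. Crabp1 ran against Cyp26c1, with r = -0.68 (permutation p = 0.00027, adjusted 0.00252) and rho = -0.68 (permutation p = 0.00041, adjusted 0.00383), and the r was -0.96 in batch 1, -0.64 in batch 2, -0.66 without the 2 farthest libraries and -0.45 over deviations from the genotype means. Aldh1a2 ran with Cyp26b1 (r = 0.68, permutation p = 0.00025, adjusted 0.00252, rho = 0.69), at 0.60 in batch 1, 0.71 in batch 2, 0.65 without the 2 farthest libraries and 0.37 over deviations from the genotype means. Crabp1 also ran with Crabp2 (r = 0.48, permutation p = 0.0168, adjusted 0.0429, rho = 0.52). Their r was 0.78 in batch 1, 0.51 in batch 2, 0.42 without the 2 farthest libraries and 0.64 over those deviations.

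Rarb, the receptor gene that retinoic acid induces and whose window holds the repeat shown above, varied little. It had 22.0, 18.9, 24.0 and 18.5 CPM in Kat6a homozygous libraries, 29.4, 27.6, 20.0 and 22.3 CPM in Dlx5 homozygous libraries and 21.7, 25.4, 23.5 and 20.3 CPM in wild type libraries. The 3 groups overlapped. The log2 fold changes against wild type were -0.12 (SE 0.11, edgeR adjusted p = 0.679) in the Kat6a homozygous group and 0.32 (SE 0.15, adjusted p = 0.483) in the Dlx5 homozygous group. Rarb ran with Cyp26b1 across libraries, with r = 0.69 (permutation p = 0.00023, adjusted 0.00252), rho = 0.69 (permutation p = 0.00036, adjusted 0.00383), 0.53 in batch 1, 0.83 in batch 2, 0.55 without the 2 farthest libraries and 0.73 over deviations from the genotype means.

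In the other comparisons none of the 8 tested members was called. For the Dlx5 homozygous group against wild type, 8 of all genes were called (0.0551%), and 4 members had an unadjusted p under 0.05, as did 9.97% of all genes; DESeq2 and limma voom each called 1 member, Aldh1a3. Against wild type, the Kat6a heterozygous group had 2 members with an unadjusted edgeR p under 0.05 (0% of genes called, 11.4% unadjusted) and the Dlx5 heterozygous group had 3 (0% called, 11.3% unadjusted), with 0 called by DESeq2 and limma voom. The double heterozygous group had 2 such members against the Kat6a heterozygous group (0.0276% called, 5.91% unadjusted) and 2 against the Dlx5 heterozygous group (0.0138% called, 5.9% unadjusted). Dlx5 homozygous against double heterozygous libraries gave 4 (0% called, 7.18% unadjusted). For the non-additive part of the double heterozygous genotype, which asks whether both mutations together differ from the sum of each alone, it was 0 of 8 (0.00689% of genes called, 5.4% unadjusted), again with 0 by DESeq2 and limma voom in these 4 comparisons. The comparisons with wild type share its 4 libraries.

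Beyond the members, 53 further retinoid genes were listed by role, and 38 were tested. The supply list, of 20 genes, covers retinol transport, storage, interconversion with retinaldehyde and other handling. Neither its 10 tested genes nor the 13 tested of 13 receptors and coregulators held a call in any of the 11 comparisons by edgeR. Unadjusted p values under 0.05 numbered 8 of 110 and 14 of 143 tests there, against 5.4% to 13.6% of all genes per comparison. DESeq2 and limma voom called none of the supply genes and 1 receptor partner, the coactivator gene Ncoa1 in double heterozygous against wild type libraries. Calls came from the 20 genes known to respond to retinoic acid in embryos or cells. This list was chosen with earlier results of these data known, so the shares given here and below describe it and do not test it. In Kat6a homozygous libraries 5 of the 15 tested were called lower and 0 higher, against 1.06% of all genes called lower; their median log2 fold change was -0.34, against 0.01 over all genes.

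The 5 were Hoxb3, Meis1, Nr2f1, Nr2f2 and Tshz1, all transcription factor genes. Hoxb3, a hindbrain and posterior arch Hox gene, had 2.87, 1.70, 1.89 and 2.73 CPM in Kat6a homozygous libraries, against 5.06, 4.91, 3.55 and 4.79 CPM in wild type libraries, with a log2 fold change of -0.997 (SE 0.25, edgeR adjusted p = 0.0391). Meis1, a Hox cofactor gene, had 65.4, 63.6, 71.7 and 61.0 CPM, against 79.1, 81.2, 96.3 and 85.7 CPM in wild type (-0.39, SE 0.08, adjusted p = 0.00668). Nr2f2, an orphan nuclear receptor gene, had 157, 157, 179 and 147 CPM, against 205, 222, 196 and 181 CPM in wild type (-0.33, SE 0.06, adjusted p = 0.00428). In none of these did the groups overlap, as for 3.54% of all genes lower after removal of the batch difference. Its relative Nr2f1 (-0.32, SE 0.08, adjusted p = 0.0377) and the zinc finger gene Tshz1 (-0.34, SE 0.08, adjusted p = 0.0304) fell by similar amounts, also without overlap. Hoxb2 was at -0.74 (SE 0.21, adjusted p = 0.0831) and did not pass. The forebrain and hindbrain marker sums given beside Crabp1 were lower in the same libraries. The arch mesenchyme sums overlapped wild type, but 9 of those 12 markers had a negative log2 fold change (median -0.17) and 3 were called lower. The part of these markers was not tested. With the 2 groups alone, and without the 4 neuron-rich libraries, Meis1 was the 1 response gene called. Meis1 and Nr2f2 were called with each of the 24 libraries left out in turn. Hoxb3 and Nr2f1 lost their calls without any 1 of the 4 Kat6a homozygous libraries, Hoxb3 also without wild type replicates 1, 2 or 4 and Nr2f1 without wild type replicate 2. Tshz1 lost its call without Kat6a homozygous replicates 2 or 4 or wild type replicates 2 or 3, so that 2 response genes in all were called without Kat6a homozygous replicates 2 or 4 or without wild type replicate 2.

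Against Kat6a heterozygous libraries, Meis1 (-0.40, SE 0.08, adjusted p = 0.00922), Nr2f2 (-0.30, SE 0.06, adjusted p = 0.0191) and Tshz1 (-0.49, SE 0.08, adjusted p = 0.00232) were lower in Kat6a homozygous libraries, 3 of 15, against 0.524% of all genes called lower. Without Kat6a homozygous replicate 4 Tshz1 was the 1 response gene called, and Nr2f2 also lost its call without Kat6a homozygous replicates 1 or 2 or Kat6a heterozygous replicates 2 or 3. In the other 9 comparisons edgeR called no response gene, with 21 of 135 unadjusted p values under 0.05, against 5.4% to 13% of all genes per comparison. DESeq2 and limma voom each called 3 there, Meis1, Nr2f1 and Nr2f2 between Kat6a homozygous and Dlx5 homozygous libraries. Among the values there, Fgf8, a signal of arch and isthmus epithelium, was at -0.92 in Dlx5 homozygous libraries against wild type (SE 0.37, adjusted p = 0.438).

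**Figure D5:**
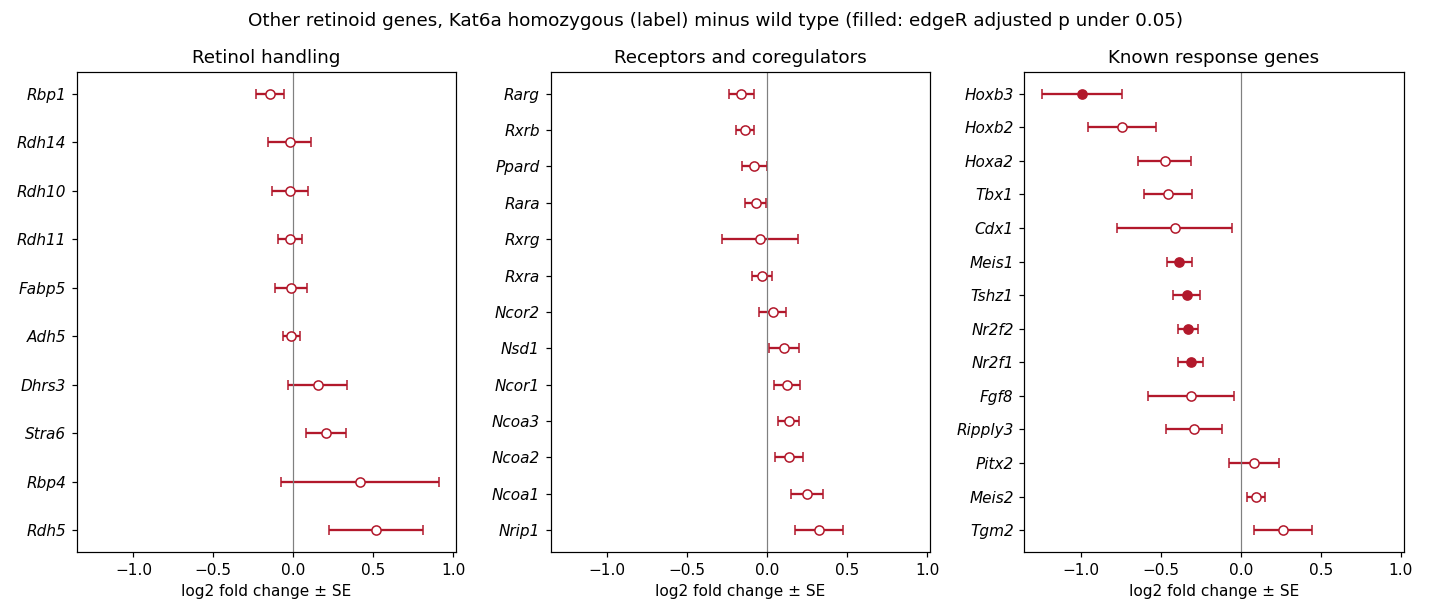
Log2 fold change with SE of 37 of the 38 tested further retinoid genes in Kat6a homozygous against wild type libraries, in 3 panels by role; filled points have an edgeR adjusted p under 0.05. The 5 filled points, from -0.997 (Hoxb3) to -0.32 (Nr2f1), all lie in the panel of known response genes.

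The genes most alike each member in log2 CPM over the 24 libraries are given as a description. The genes alike Crabp1 included Dlx1 (r = 0.82) and Nr2f1 (0.82), the last of which is among the response genes called with it. Aldh1a2 was most like Col12a1 (0.90), Mfap4 (0.87) and Pgm5 (0.87). For Aldh1a3 the highest were Foxi2 (0.79), Rgl3 (0.79) and Mfge8 (0.78). Cyp26b1 reached 0.92 with AI606473, 0.89 with Osr1 and 0.88 with Nbl1, and Cyp26c1 reached 0.83 with Plekhg3 and 0.82 with Arhgap27 and Ctnnd2. Crabp2 was most like Calm3 (0.86), Pbx2 (0.85) and Ube2r2 (0.85), Cyp26a1 most like Speg (0.76), Sptlc2 (0.73) and H2az1 (0.69), and Rarb most like Pskh1 (0.75), Tmem132c (0.73) and Pramel12 (0.73).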

How the data were processed

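Polyadenylated RNA of 24 pharyngeal arch libraries was made with a stranded TruSeq kit, per the labels' protocols. The authors deposited whole-number read counts per Entrez gene, not normalized, with gene lengths; the submitters' processing notes name CASAVA 1.8.2, featureCounts and mm10, and name no aligner, annotation or strand setting. Of 27179 entries, 568 without a gene identifier (0.182 to 0.259% of counts) were left out. Samples were grouped by genotype label; single-library files held the same counts as the table. Counts were filtered by filterByExpr (14506 genes left), scaled by TMM and fitted in edgeR 4.0.16 (R 4.3.3) by the quasi-likelihood test, with 6 genotype means and a batch term (17 residual degrees of freedom). Benjamini-Hochberg adjustment ran over all genes, and a call is an adjusted p under 0.05. CPM and RPKM were computed here from the TMM-scaled totals. Log2 CPM used a prior count of 2. Alternatives were DESeq2 1.42.0, limma voom 3.58.1, RLE scaling, other filters, no batch term, single batches, the compared groups alone, a replicate block, a neuron score covariate and leaving out each library. The code was tested on simulated data. Permutation correlations used scipy 1.17.1.

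The members and gene lists were chosen with earlier results of these data known. All 9 members are named, and of the other retinoid genes those called and the 2 with the largest change among genes with a mean of at least 1 CPM per comparison, of which the text gives some; results of some genes that this rule names are not reported here. The labels call the replicates biological but give no origin for their numbers. Same-numbered libraries were taken as paired where all 4 correlations of their deviations were over 0.1. This held between Kat6a heterozygous and wild type (0.183 to 0.661), where the block changed no member's call. That comparison called 0 genes without the block, so a member could only gain a call there. All 4 correlations were also positive, without all reaching 0.1, between Kat6a homozygous and wild type (0.0949 to 0.569) and between Kat6a homozygous and heterozygous (0.0834 to 0.620), among other pairs of groups. Depth limits low members: Aldh1a1 had 2 to 27 counts per library and Aldh1a2 11 to 92.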

Additional observations from a re-analysis of the deposited data

Results flagged for a closer look

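In 54 sets of 4 libraries, each a member in a genotype, the highest or lowest library was compared with the rest by Dixon's ratio at its 95% critical value, which chance exceeds in about 1 of 20 sets. Both libraries that stood apart were wild type. Aldh1a1 was at 0.968 CPM in wild type replicate 1, the deepest library, against 0.491 to 0.519 CPM in the other 3. Aldh1a2 was at 3.80 CPM in wild type replicate 3, against 1.69 to 2.05 CPM in the other 3.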

How the results depend on the processing

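No member or named retinoid gene called in either setting changed direction under any alternative. Kat6a homozygous against wild type called 1 member, and 0 within batch 2, with the compared groups alone or without the 4 neuron-rich libraries (1 to 3 with a library left out). Dlx5 homozygous against wild type called 0, and 1 by DESeq2 or limma voom (0 to 0 with a library left out). Double heterozygous against wild type called 1. It called 2 by DESeq2, limma voom or without the neuron-rich libraries, and 0 with no filter, no batch term, batch 2 alone, the compared groups alone or the neuron score (0 to 2 with a library left out). Kat6a homozygous against heterozygous called 1, 2 by DESeq2, and 0 by limma voom, without the batch term, within batch 2, with the compared groups alone, with the replicate block or without the neuron-rich libraries (0 to 2 with a library left out). Dlx5 homozygous against double heterozygous called 0, and 1 (Crabp1) within batch 1 or with the compared groups alone (0 to 0 with a library left out). Kat6a homozygous against Dlx5 homozygous called 3, and 1 without the batch term or with the replicate block (0 to 3 with a library left out). The test over all genotypes called 3, 5 by DESeq2 and 1 without the batch term (1 to 5 with a library left out). Of the response genes, Kat6a homozygous against wild type called 5, 3 by limma voom or within batch 2, and 1 with the compared groups alone or without the neuron-rich libraries (2 to 6 with a library left out). Kat6a homozygous against heterozygous called 3, 1 within batch 2 or without the neuron-rich libraries and 0 with the compared groups alone (1 to 4 with a library left out). The single batches and the compared groups alone hold fewer libraries; for the other settings the cause was not tested. Leaving out the neuron-rich libraries was chosen after seeing the data.

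Counts over all genes moved as well. Kat6a homozygous against wild type called 222 genes, 306 by DESeq2, 139 by limma voom, 98 within batch 2, 64 with the compared groups alone and 83 without the neuron-rich libraries. Dlx5 homozygous against wild type called 8, and 38 by DESeq2. Double heterozygous against wild type called 65, 185 by DESeq2, 145 by limma voom and 10 without the batch term. Kat6a heterozygous and Dlx5 heterozygous against wild type called 0, and 80 and 31 by DESeq2. The replicate block changed no other member's call than those given. Apart from the Kat6a heterozygous and wild type groups, the replicate numbers were shared without every pair correlating above 0.1. The batch term rests on the heterozygous groups, since the Dlx5 homozygous group shares no batch with wild type or Kat6a homozygous libraries. No fit within a single batch could be made where a group compared has no library in it, such as Dlx5 homozygous against wild type.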
